A study of Mus musculus with 16 samples.

Results

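The miR-30 family is a group of microRNAs (miRNAs), short RNAs that are cut in pairs from the opposite arms of a hairpin transcript and guide silencing proteins to messenger RNAs. In the miR-30 family the strand from the 5′ arm (5p) is the guide usually loaded and retained, and the 3′ strand (3p) is the partner usually degraded. Target choice rests mainly on the seed, the bases near the 5′ end of the strand, so strands with one seed can act on overlapping targets. The miR-30 guides are abundant in lung, kidney and heart, and are best known for restraining epithelial-to-mesenchymal transition and for keeping connective tissue growth factor low. Members were taken by name from the array, as every mouse miRNA called miR-30a to miR-30e with any locus or arm suffix. This gave 10 of the 611 mouse miRNAs on the array, namely the 5p strands miR-30a-5p, miR-30b-5p, miR-30c-5p, miR-30d-5p and miR-30e-5p and the 3p strands miR-30a-3p, miR-30b-3p, miR-30c-1-3p, miR-30c-2-3p and miR-30e-3p.

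The family was measured in whole lungs of BALB/c mice aged 8 to 12 weeks, in a model of allergic airways disease driven by ovalbumin (OVA, chicken egg white protein). All mice received 1 mg of the alum adjuvant Alhydrogel by intraperitoneal injection on day 0, and intranasal challenges on days 12 to 15, and lungs were taken 24 h after the last challenge. PBS/PBS mice (2 arrays) received no OVA, PBS/OVA mice (4 arrays) received 10 μg of OVA at each challenge only, and OVA/OVA mice (6 arrays) also received 50 μg of OVA with the adjuvant on day 0. OVA/OVA DEX mice (4 arrays) were treated as OVA/OVA mice and injected with the glucocorticoid dexamethasone at 3 mg/kg from day 11 on every second day, while the labels give PBS as the treatment of the other groups. The labels number the arrays of a group and do not state which animals they came from, so p-values measure the spread between these 16 arrays. RNA was taken from the whole organ, in which fewer cells of a type and less RNA per cell cannot be told apart.

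The sequences of the 7 members in RefSeq's mouse miRNA table, with that of miR-384-5p from outside the family, are shown because shared seeds group the strands and because single bases separate some of them. They are written 5′ to 3′ with the seed, bases 2 to 8, in capitals.
miR-30a-5p: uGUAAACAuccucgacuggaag
miR-30e-5p: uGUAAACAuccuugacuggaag
miR-30c-5p: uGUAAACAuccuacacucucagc
miR-384-5p: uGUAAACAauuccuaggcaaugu
miR-30a-3p: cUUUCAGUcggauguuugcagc
miR-30e-3p: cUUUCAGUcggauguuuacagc
miR-30c-1-3p: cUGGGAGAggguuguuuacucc
miR-30c-2-3p: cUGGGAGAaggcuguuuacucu

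The 7 members carry 3 seeds. The 5p strands shown share GUAAACA, miR-30a-3p and miR-30e-3p share UUUCAGU, and both miR-30c 3p strands share UGGGAGA, so the arms of one hairpin do not share a seed. Counting from the 5′ end, miR-30a-5p and miR-30e-5p differ at 1 base (C13U), as do miR-30a-3p and miR-30e-3p (G18A), and miR-30c-1-3p differs from miR-30c-2-3p at 3 bases (G9A, U12C and C22U). How much signal crosses between probes for strands this close was not measured here. The miR-30c-5p guide is cut from 2 hairpins with one mature sequence, so the array cannot separate its sources, while the 3p strands are specific to the hairpins Mir30c-1 and Mir30c-2. In GRCm38.p6, RefSeq places Mir30a at chr1:23272269-23272339 and Mir30c-2 at chr1:23291701-23291784 on the plus strand, outside other annotated genes. Mir30c-1 at chr4:120769534-120769622 and Mir30e at chr4:120772606-120772697 lie on the minus strand within the span of Nfyc, which encodes a subunit of the CCAAT-binding factor NF-Y, and Mir30e also lies within the annotated hairpin Mir30f.

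Signals below are log2 values of scanner intensity after division by the array's own 75th percentile and multiplication by the mean of those percentiles. On this scale 1 unit is a 2-fold difference. Probes differ in brightness for reasons other than RNA amount, so levels are compared between groups for a single strand and not between strands. In all, 266 mouse miRNAs were tested, all 10 members among them. A strand passed when the adjusted p from limma, corrected over those 266, was under 0.05. Of the members, 9 were above background on all 16 arrays. The exception was miR-30c-1-3p, which was above background on 2 of 2 PBS/PBS arrays, 1 of 4 PBS/OVA arrays, 1 of 6 OVA/OVA arrays and 0 of 4 treated arrays. miR-384-5p, the guide outside the family with the same seed, was above background on 0 of 16 arrays and was not tested. Before scaling, summed signal per array ranged from 793228 to 940050 in PBS/PBS, from 493063 to 718149 in PBS/OVA, from 251350 to 733489 in untreated allergic lungs and from 499733 to 638811 under dexamethasone. The arrays lay on 2 slides, and both PBS/PBS arrays lay on slide 1.

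All 5 guides were lower in the untreated allergic lungs than in the dexamethasone-treated allergic lungs. The comparison asks what the steroid changed in allergic lung. miR-30c-5p differed most, at 1.81-fold, and the other guides by 1.28- to 1.55-fold. Of the 3p strands, miR-30a-3p, miR-30c-2-3p and miR-30e-3p were lower as well, while miR-30b-3p did not pass. In all, 8 of 10 members passed, all lower in OVA/OVA, where 53.4% of all miRNAs tested passed and 32.3% passed with a lower level in OVA/OVA. None of the 8 reached a 2-fold difference, which 12.8% of all miRNAs tested did while passing.

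miR-30c-5p had log2 signals of 12.43 and 12.22 on the PBS/PBS arrays and of 12.35, 11.85, 12.33 and 12.37 on the PBS/OVA arrays. OVA/OVA arrays ranged from 11.30 to 12.09 with a median of 11.81, and OVA/OVA DEX arrays read 12.67, 12.66, 12.70 and 12.48. The OVA/OVA arrays therefore lay wholly below the treated and the PBS/PBS arrays and reached above the lowest PBS/OVA array. OVA/OVA minus OVA/OVA DEX was -0.86 (SE 0.153, 95% interval -1.18 to -0.53, limma adjusted p = 0.000671).

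In miR-30b-5p, a guide whose hairpin lies on one chromosome with that of miR-30d, the PBS/PBS arrays read 12.03 and 12.07 and the PBS/OVA arrays 12.14, 11.71, 12.11 and 12.08. The OVA/OVA arrays ran from 11.31 through a median of 11.58 to 11.81, against 12.42, 12.24, 12.08 and 12.12 under dexamethasone. No OVA/OVA array reached the lowest treated array, and the difference was -0.64 (SE 0.12, limma adjusted p = 0.000958).

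miR-30d-5p had the smallest standard error of the guides. Its signals were 11.40 and 11.45 in PBS/PBS, and 11.44, 11.28, 11.52 and 11.47 in PBS/OVA. They ran from 11.03 to 11.26 (median 11.16) in OVA/OVA, and were 11.76, 11.63, 11.58 and 11.56 in OVA/OVA DEX. OVA/OVA lay below all 3 other groups without overlap, and 0.48 below the treated group (log2 difference -0.48, SE 0.0683, limma adjusted p = 0.000131).

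The brightest guide by scanner signal, miR-30a-5p, gave 13.79 and 13.76 in PBS/PBS and 13.82, 13.39, 13.76 and 13.76 in PBS/OVA. It gave 13.31 to 13.64 (median 13.49) in OVA/OVA, and 14.14, 14.10, 14.07 and 13.85 in OVA/OVA DEX. The treated arrays were the highest of the 16, and OVA/OVA differed from them by -0.55 (SE 0.0933, limma adjusted p = 0.000513). For miR-30e-5p, one base away from it, the arrays read 10.82 and 10.78, then 10.83, 10.36, 10.77 and 10.73, with OVA/OVA between 10.43 and 10.61 (median 10.54) and OVA/OVA DEX at 11.00, 10.87, 10.84 and 10.84. Here OVA/OVA was again below every treated array, by -0.36 in the mean (SE 0.0823, limma adjusted p = 0.00342). On the PBS/OVA side, replicate 2 gave the lowest value of its group for each of the 5 guides.

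**Figure D1:**
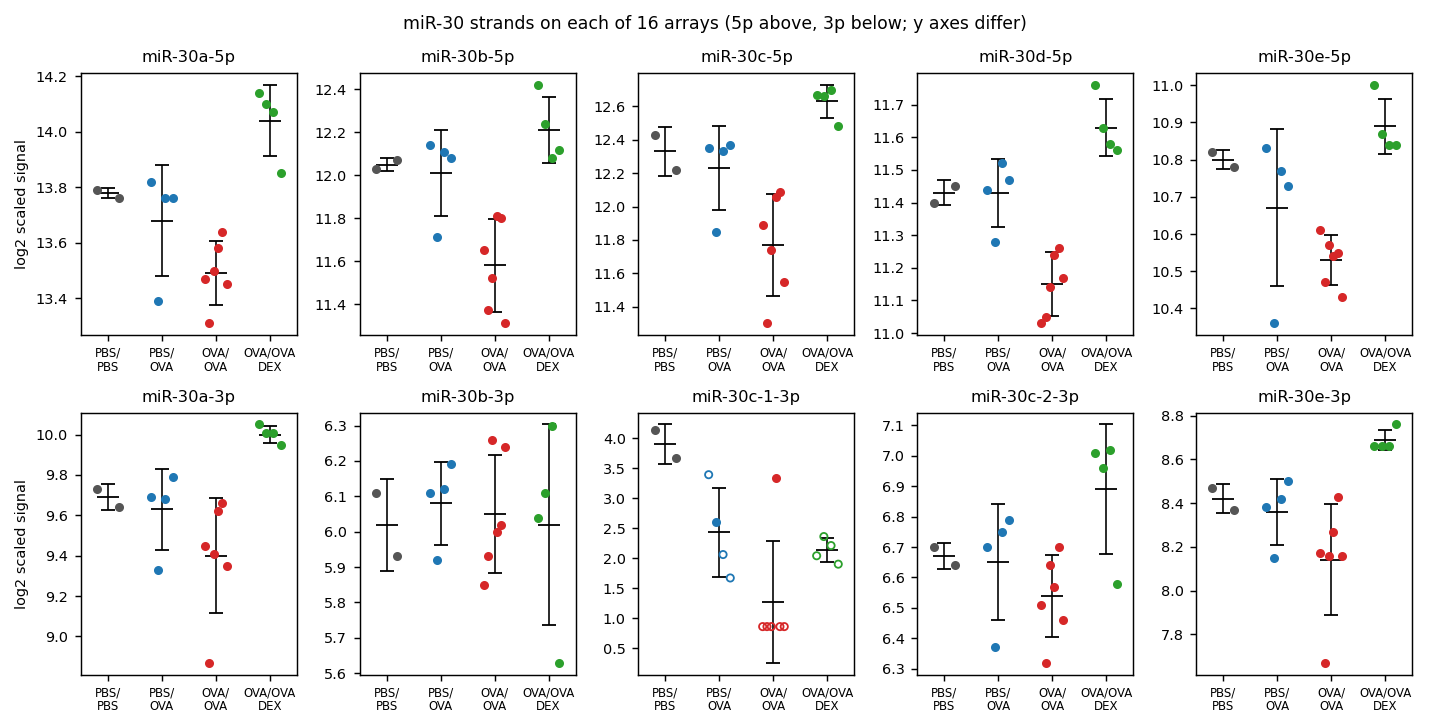
Log2 scaled signal (vertical axis) of the 10 miR-30 strands in PBS/PBS (n = 2), PBS/OVA (n = 4), OVA/OVA (n = 6) and OVA/OVA DEX (n = 4) lungs, 5p strands above and 3p strands below. Each point is 1 array, open where the strand was not above background; bars give the mean ± SD. OVA/OVA lies below OVA/OVA DEX without overlap for all 5 guides, whereas miR-30b-3p is level across groups.

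Among the 3p strands, miR-30a-3p and miR-30e-3p followed their guides. miR-30a-3p read 9.73 and 9.64 in PBS/PBS, and 9.69, 9.33, 9.68 and 9.79 in PBS/OVA. In OVA/OVA it ran from 8.87 to 9.66 (median 9.43), below treated values of 10.05, 10.01, 10.01 and 9.95 (difference -0.61, SE 0.134, limma adjusted p = 0.00251). miR-30e-3p, which shares its seed, read 8.47 and 8.37 in PBS/PBS, and 8.38, 8.15, 8.42 and 8.50 in PBS/OVA. It ran from 7.67 to 8.43 (median 8.17) in OVA/OVA, below treated values of 8.66, 8.66, 8.66 and 8.76 (difference -0.54, SE 0.118, limma adjusted p = 0.00232). In both strands every OVA/OVA array lay below every treated array, and the lowest of all 16 values was that of OVA/OVA replicate 2.

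The remaining 3p strands were dim. miR-30c-2-3p, partner of the guide that differed most, read 6.70 and 6.64 in PBS/PBS, and 6.70, 6.37, 6.75 and 6.79 in PBS/OVA. It ran from 6.32 to 6.70 (median 6.54) in OVA/OVA, and read 7.01, 6.96, 7.02 and 6.58 in OVA/OVA DEX. Treated replicate 4 fell within the OVA/OVA range, and the difference of -0.36 passed (SE 0.109, limma adjusted p = 0.0144). miR-30b-3p read 6.11 and 5.93, then 6.11, 5.92, 6.12 and 6.19, then 5.85 to 6.26 (median 6.01), and under dexamethasone 6.04, 6.11, 6.30 and 5.63. Its groups overlapped throughout, with a difference of 0.03 between OVA/OVA and OVA/OVA DEX (95% interval -0.23 to 0.30, limma adjusted p = 0.851). Before scaling, miR-30b-3p signals lay between 34.0 and 106.4 and those of miR-30c-2-3p between 39.7 and 174.2, against 5018.5 to 24359.1 for miR-30a-5p. Normexp background correction models dim spots differently and adds 50 to every spot, which lies within the range of both strands' signals. After it, miR-30b-3p differed by 0.22 and miR-30c-2-3p by 0.02, and neither passed. The 4 probes for miR-30b-3p disagreed, with differences from -0.75 to 0.44, while all 17 probes of the 8 members that passed were lower in OVA/OVA (-0.94 to -0.29).

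In 7 of the 10 members the OVA/OVA and OVA/OVA DEX arrays did not overlap, all lower in OVA/OVA, against 16.5% of all miRNAs tested. The 5 guides had a median difference of -0.55 and the 4 3p strands above background on all arrays one of -0.45, beside -0.09 over all miRNAs tested. Leaving out any 1 array left 8 or 9 members past the threshold, with 9 only where miR-30c-1-3p passed. The share of all miRNAs passing then ran from 45.5% to 58.6%. Without scaling of the arrays, 0 of 10 passed, although 9 members above background on all arrays differed by -0.26 to -1.15. The median of all miRNAs was -0.38 in that setting, in which 8.65% of all miRNAs tested passed.

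Markers of other cells moved with the same contrast. Of 6 miRNAs of haematopoietic cells, which include the eosinophils and lymphocytes that enter allergic lung, 5 were higher in OVA/OVA than in OVA/OVA DEX and passed. The log2 of their summed signal, in which the brightest weigh most, was 15.11 to 15.67 in OVA/OVA and 14.26 to 14.82 under dexamethasone. It was 14.09 to 14.66 in PBS/OVA and 14.45 to 14.61 in PBS/PBS. All 6 haematopoietic miRNAs were above background on every array. Lower in OVA/OVA and past the threshold were 2 of 2 miRNAs of endothelium, 3 of 3 of smooth muscle, 3 of 4 of fibroblasts, 2 of 2 tested of red cells and 3 of 4 tested of striated muscle. For epithelium, 1 of 5 tested miRNAs was higher and 1 lower, and for ciliated cells 2 of 6 were higher and 3 lower. The log2 of the summed epithelial signal overlapped, at 13.24 to 13.34 untreated and 13.15 to 13.44 under dexamethasone. The part of these markers in the miR-30 differences was not tested.

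**Figure D2:**
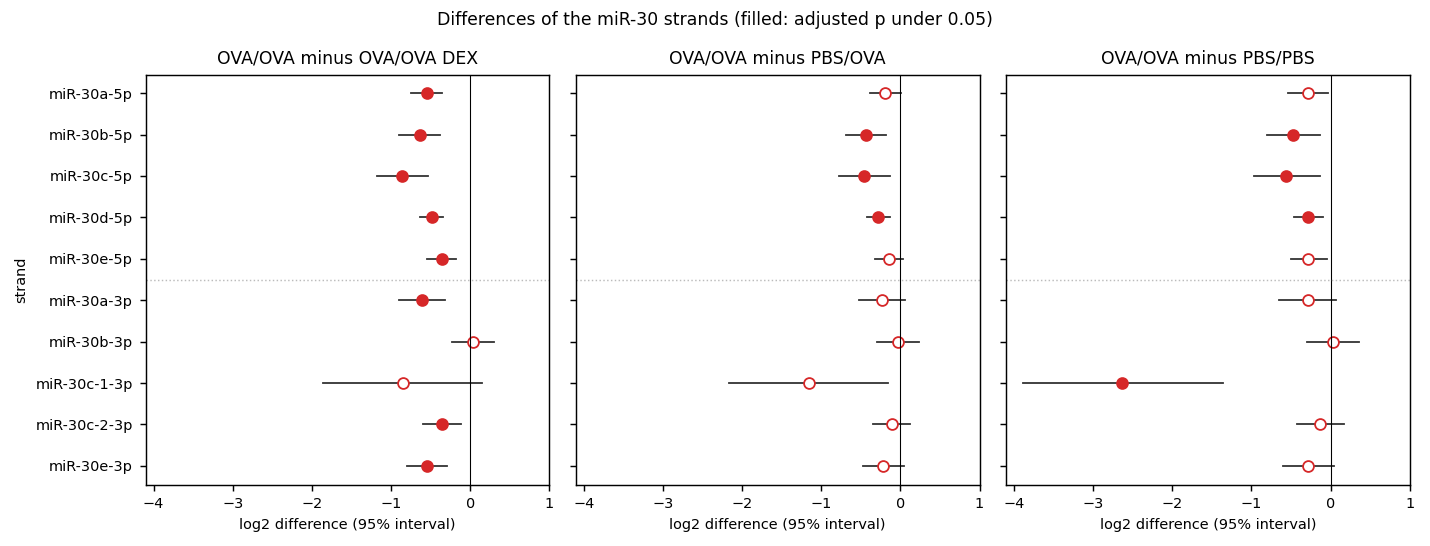
Log2 differences of the 10 miR-30 strands (horizontal axis, bars give 95% intervals) for OVA/OVA minus OVA/OVA DEX, minus PBS/OVA and minus PBS/PBS, filled where the limma adjusted p was under 0.05. The guides lie left of 0 in each panel, and 8, 3 and 4 strands are filled.

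OVA/OVA lungs were next set against PBS/OVA lungs, which were challenged but not sensitised, and so the comparison asks what sensitisation adds. Only miR-30b-5p, miR-30c-5p and miR-30d-5p passed, all lower in OVA/OVA, which made 3 of 10 members where 31.6% of all miRNAs tested passed and 16.9% passed with a lower level. None of the 3 reached a 2-fold difference, as 5.26% of all miRNAs tested did. The differences were -0.44 for miR-30b-5p (SE 0.12, limma adjusted p = 0.0167), -0.46 for miR-30c-5p (SE 0.153, adjusted p = 0.0374) and -0.28 for miR-30d-5p (SE 0.0683, adjusted p = 0.00864). The groups lay apart for miR-30d-5p alone, beside 9.02% of all miRNAs tested that lay apart and lower, since PBS/OVA replicate 2 lay within the OVA/OVA range, or for miR-30e-5p below it, in the other guides. miR-30a-5p and miR-30e-5p gave -0.19 (95% interval -0.39 to 0.01) and -0.15 (95% interval -0.32 to 0.03). The 3p strands above background on all arrays gave -0.03 to -0.23, and none passed. Over the lists, the median was -0.28 for the guides, -0.16 for those 3p strands and -0.04 for all miRNAs tested.

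This count depended on single arrays. It rose to 5 without PBS/OVA replicate 2 and fell to 1 without PBS/OVA replicate 1 or 3. Without OVA/OVA replicate 4 it was 4, of which 3 were above background on all arrays, as before, and the other was miR-30c-1-3p. Replicate 4 is the only OVA/OVA array on which that strand was above background. The count was 2 without PBS/OVA replicate 4 and 2 without any of OVA/OVA replicates 2, 3 and 6. The share of all miRNAs passing moved with it, from 31.6% to 38.7% without PBS/OVA replicate 2 and 36.1% without OVA/OVA replicate 4, and to 22.2% and 18% without PBS/OVA replicates 1 and 3. Haematopoietic markers passed in 6 of 6 cases here, all higher in OVA/OVA, as did 1 of 5 epithelial markers. Lower in OVA/OVA and past the threshold were 2 of 2 endothelial, 2 of 4 fibroblast and 3 of 4 striated muscle markers, and none of the ciliated, smooth muscle and red cell lists passed. Their part in the miR-30 differences was not tested.

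Against PBS/PBS, which received neither sensitisation nor challenge with OVA, the same 3 guides passed together with miR-30c-1-3p. That made 4 of 10, all lower in OVA/OVA, beside 25.6% of all miRNAs tested and 12.4% with a lower level. Of these, miR-30c-1-3p entered the test only through the PBS/PBS arrays, where it was highest. The detection filter thus favours its pass, which is not read as a result. With a 2-fold minimum as well, miR-30c-1-3p alone passed, beside 9.77% of all miRNAs tested. miR-30b-5p differed by -0.47 (SE 0.152, limma adjusted p = 0.0377), miR-30c-5p by -0.56 (SE 0.193, adjusted p = 0.0485) and miR-30d-5p by -0.28 (SE 0.0864, adjusted p = 0.0330). miR-30a-5p at -0.29 (adjusted p = 0.0871) and miR-30e-5p at -0.28 (adjusted p = 0.0621) did not pass, although every OVA/OVA array lay below both PBS/PBS arrays. The groups lay apart, lower in OVA/OVA, in 6 of 10 members, miR-30c-1-3p among them, against 25.6% of all miRNAs tested. With 2 PBS/PBS arrays the comparison is weakly held. Leaving out PBS/PBS replicate 1 or 2 left 0 members, where 6.77% and 4.51% of all miRNAs tested passed. Leaving out OVA/OVA replicate 1 or 6 left 2, namely 1 guide and miR-30c-1-3p (24.1% and 21.8% of all). Without OVA/OVA replicate 2 or 3, miR-30c-1-3p alone passed and no guide did (18% and 19.5% of all). Without OVA/OVA replicate 4 or 5, 3 of the 9 members above background on all arrays passed, as with every array included (32.7% and 31.2% of all). By contrast, 6 members passed without PBS/OVA replicate 2, namely the 5 guides and miR-30c-1-3p (36.1% of all). That array enters only through the shared spread. Among the markers, 4 of 6 of haematopoietic cells and 1 of 5 of epithelium passed higher in OVA/OVA, and 3 of 6 of ciliated cells and 2 of 4 of striated muscle passed lower. Their part in the miR-30 differences was not tested. This comparison and the others of OVA/OVA share the 6 OVA/OVA arrays, so their values are not independent.

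Unlike the guides, miR-30c-1-3p stood near the detection limit. Its log2 signals were 4.13 and 3.67 in PBS/PBS and 3.39, 2.61, 2.06 and 1.67 in PBS/OVA. In OVA/OVA, 5 arrays were at the floor of 0.86 and replicate 4 read 3.34, and OVA/OVA DEX read 2.04, 2.36, 2.21 and 1.90. Before scaling, the highest signal on any array was 25.2. Only in PBS/PBS was this strand above background on every array of a group, the rule for testing. The filter therefore favours a lower level in every comparison with PBS/PBS. PBS/PBS was the highest group, and the fitted difference of -2.63 between OVA/OVA and PBS/PBS (SE 0.59, limma adjusted p = 0.00719) takes its size from the floor. It was 0.86 after normexp correction. That method adds 50 to every spot, more than this strand's highest signal, so the value cannot decide a direction. With the scanner software's own total per miRNA the difference was -0.12, and no size or direction is read for this strand. It was not above background on any OVA/OVA DEX array, and the means of 2.13 there and 3.90 in PBS/PBS did not pass (limma adjusted p = 0.318). Its 4 probes differed singly by -0.59 to 0.00 in that comparison, and no fold is drawn from them.

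The processed log2 values that the authors deposited carry older names, in which an asterisk marks the 3p strand, and hold a row for each of the 10 members. Those rows equalled the scanner's 3p strand within 0.07 for miR-30a*, miR-30c-2* and miR-30e*. The row named miR-30b* instead lay within 0.1 of the row of the guide miR-30b on all 16 arrays, between 6.05 and 7.70 above what the scanner gives for miR-30b-3p. The row named miR-30c-1* was the same as that of miR-30c on the 4 arrays where miR-30c-1-3p was above background (largest difference 0.0), between 9.41 and 10.02 above the scanner's value. These rows do not hold the 3p signal and were left out of every alternative below. The miR-30c-1* values were 4.4 to 5.0 on those 4 arrays and -7.3 to -5.7 on the other 12, on the log2 scale of that table.

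Dexamethasone-treated allergic lungs were also set against PBS/PBS. By limma, 0 of 10 members passed, where 0% of all miRNAs tested did, and the exact Mann-Whitney test, whose smallest possible p with 4 against 2 arrays is 0.133, could call none. At an unadjusted limma p under 0.05, 2 members differed, miR-30d-5p (0.21) and miR-30c-1-3p (-1.77), beside 19 of the 266 miRNAs tested. The filter favours the lower level of miR-30c-1-3p. The guides were 0.08 to 0.30 higher in the treated lungs with a median of 0.21, beside 0.09 over all miRNAs tested. Every guide was higher on all 4 treated arrays than on both PBS/PBS arrays, and groups lay apart in either direction in 27.1% of all miRNAs tested. For miR-30a-5p the 95% interval ran from -0.01 to 0.53 and for miR-30c-5p from -0.14 to 0.74, so a level up to those bounds above PBS/PBS is compatible with these arrays.

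OVA challenge without sensitisation left the guides near PBS/PBS, with differences from -0.13 to 0.00. By limma, 0 of 10 members passed, where 0.376% of all miRNAs tested did. At an unadjusted limma p under 0.05 there was 1 (miR-30c-1-3p, -1.47, which the filter favours), beside 12 of the 266 miRNAs tested. The exact Mann-Whitney test could again call none (smallest possible p 0.133). Among the guides the 95% interval was narrowest for miR-30d-5p, from -0.20 to 0.20, and widest for miR-30c-5p, from -0.54 to 0.34. For each guide the order of group means was thus OVA/OVA DEX highest, PBS/PBS and PBS/OVA next and OVA/OVA lowest, and the neighbours OVA/OVA DEX and PBS/PBS, and PBS/PBS and PBS/OVA, did not pass a test of their difference.

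**Figure D3:**
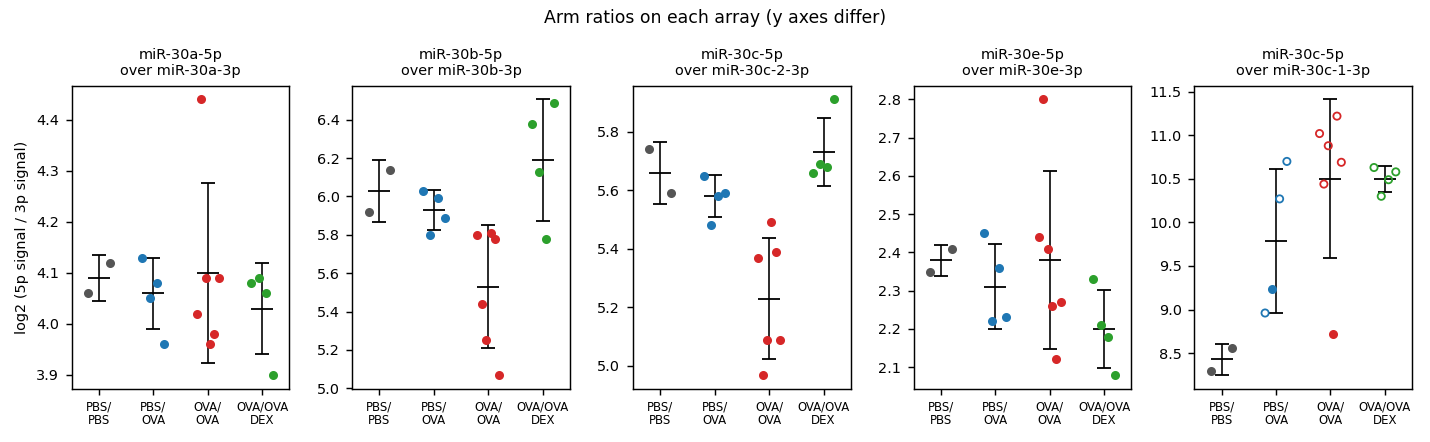
Log2 of 5p over 3p signal on the same array (vertical axis) for the 5 miR-30 arm pairs in the 4 groups, 1 point per array, open where the 3p strand was not above background, bars mean ± SD. The ratios with miR-30b-3p and miR-30c-2-3p are lowest in OVA/OVA, and those of miR-30a and miR-30e overlap between OVA/OVA and OVA/OVA DEX.

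Whether the arms of a hairpin moved together was tested with the ratio of 5p over 3p signal within an array, which does not change when an array is divided by a single number. The ratio's own level compares different probes and has no meaning as a ratio of molecules, so only its differences between groups are read. Of the 52 arm pairs tested, 5 belong to miR-30, with miR-30c-5p paired to each of its 3p strands. In dexamethasone-treated against untreated allergic lungs, 2 of the 5 passed, both lower in OVA/OVA, beside 38.5% of all arm pairs and 17.3% with a lower ratio.

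The ratio of miR-30c-5p over miR-30c-2-3p was 5.74 and 5.59 in PBS/PBS and 5.65, 5.48, 5.58 and 5.59 in PBS/OVA. It ran from 4.97 to 5.49 (median 5.23) in OVA/OVA and was 5.66, 5.69, 5.68 and 5.91 in OVA/OVA DEX. Every OVA/OVA array lay below every treated array, as in 3.85% of all arm pairs, and the ratio was 1.41-fold lower (log2 difference -0.50, SE 0.11, limma adjusted p = 0.00514). For miR-30b the ratio was 5.92 and 6.14 in PBS/PBS, and 6.03, 5.80, 5.99 and 5.89 in PBS/OVA. It ran from 5.07 to 5.81 (median 5.61) in OVA/OVA and was 6.38, 6.13, 5.78 and 6.49 in OVA/OVA DEX. Treated replicate 3 overlapped the untreated allergic arrays, and the difference was -0.67 (SE 0.174, limma adjusted p = 0.0139). In these pairs the guide thus differed by more than its partner.

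The other hairpins did not show this. For miR-30a the ratio was 4.06 and 4.12 in PBS/PBS, 4.13, 4.05, 4.08 and 3.96 in PBS/OVA, 3.96 to 4.44 (median 4.06) in OVA/OVA and 4.08, 4.09, 4.06 and 3.90 in OVA/OVA DEX. For miR-30e it was 2.35 and 2.41, then 2.45, 2.22, 2.36 and 2.23, then 2.12 to 2.80 (median 2.34), and under dexamethasone 2.33, 2.21, 2.18 and 2.08. OVA/OVA and OVA/OVA DEX overlapped in both, with differences of 0.06 for miR-30a (95% interval -0.15 to 0.27) and 0.18 for miR-30e (95% interval -0.07 to 0.44). Those intervals do not reach a 1.41-fold fall. The miR-30e ratio was lower on every treated array than on both PBS/PBS arrays (-0.18, limma adjusted p = 0.952), as in 6 of the 52 arm pairs. The pair with miR-30c-1-3p, whose 3p strand was not above background on most arrays, gave 0.00 (95% interval -0.96 to 0.95).

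Both ratios that passed rest on the dim 3p strands. Their differences were -0.15 for miR-30b and 0.05 for miR-30c over miR-30c-2-3p after quantile normalization, and neither passed. Leaving out OVA/OVA DEX replicate 1 left only the miR-30c ratio past the threshold. Within slide 2 they were -0.48 and -0.42 and within slide 1 -0.82 and -0.61, of which the miR-30b ratio on slide 1 passed. Against PBS/OVA, 0 of 5 ratios passed with limma, beside 9.62% of all arm pairs, and 0 with the exact Mann-Whitney test. At an unadjusted limma p under 0.05 there were 2, beside 16 of the 52 arm pairs. They were -0.40 for miR-30b and -0.34 for miR-30c over miR-30c-2-3p. Against PBS/PBS these were -0.50 (adjusted p = 0.124) and -0.43 (adjusted p = 0.0533). There the ratio of miR-30c-5p over miR-30c-1-3p was the only 1 of 5 to pass (2.07, limma adjusted p = 0.0263, beside 9.62% of all arm pairs). It carries the floor of its 3p strand, which was tested only through the PBS/PBS arrays, where it was highest. The filter thus favours this pass, which is not read as a result. Between OVA/OVA DEX and PBS/PBS, and between PBS/OVA and PBS/PBS, 0 of 5 ratios passed with limma, beside 0% of all arm pairs in both. In each, 1 ratio had an unadjusted limma p under 0.05, again that with miR-30c-1-3p, beside 4 and 1 of the 52 arm pairs. The exact Mann-Whitney test could call none there, its smallest possible p being 0.133.

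**Figure D4:**
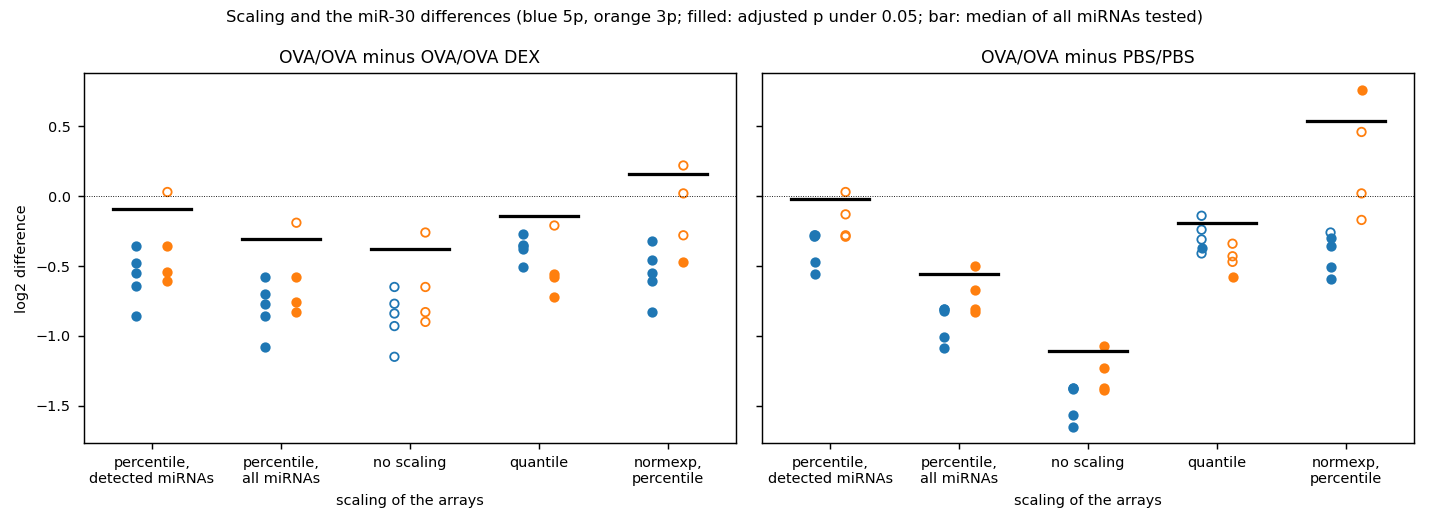
Log2 differences (vertical axis) of the 9 miR-30 strands above background on all arrays, 5p in blue and 3p in orange, under 5 ways to scale the arrays, filled where the adjusted p was under 0.05; the bar is the median of all miRNAs tested. The guides lie below the bar in OVA/OVA minus OVA/OVA DEX under each scaling, while the bar itself moves between -0.38 and 0.16; settings that differ by 1 number per array shift points and bar alike.

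Scaling moved whole arrays, and with them the counts. In OVA/OVA minus OVA/OVA DEX the median of all miRNAs was -0.09 with the scaling used here, -0.31 with the percentile taken over all mouse miRNAs, -0.38 without scaling, -0.14 after quantile normalization and 0.16 after normexp. The median of the guides minus that median was -0.46, -0.46, -0.46, -0.22 and -0.71 in that order. Against PBS/PBS the medians of all miRNAs were -0.02, -0.56, -1.11, -0.19 and 0.54, and the guides lay at -0.26, -0.26, -0.27, -0.12 and -0.90 relative to them. The first 3 settings differ by 1 number per array, which cancels in this difference, so they do not bear on it. Normexp adds 50 to every spot, which shifts dim miRNAs and with them the median of all, so its value cannot decide this either. The guides' own median was -0.55 both with the scaling used here and after normexp, and against PBS/PBS -0.29 and -0.36. After quantile normalization the guides stayed below the median of all miRNAs, by a smaller amount. For miR-30b-3p the difference was 0.03 with the scaling used here, -0.19 with the percentile over all miRNAs and -0.26 without scaling, a shift common to all miRNAs. After quantile normalization it was -0.21, and it passed in none of these settings.

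Across the 16 arrays, the miRNAs outside the family whose profile was most like the mean profile of the guides were miR-26a-5p, miR-23a-3p and miR-10a-5p. Likeness was the root mean square distance between log2 profiles, each centred on its own mean, and it was 0.059, 0.062 and 0.070 beside a median of 0.274 over the 197 miRNAs outside the family above background on all arrays. Members used in the mean lay at 0.060 (miR-30a-5p) to 0.154 (miR-30c-5p), and miR-30b-3p lay at 0.30. Between OVA/OVA and OVA/OVA DEX those 3 miRNAs differed by -0.50, -0.59 and -0.51. Nearest to the mean profile of the 3p strands above background on all arrays were miR-126-3p, a marker of endothelium, at 0.085, miR-151-5p at 0.099 and miR-186-5p at 0.102. They differed by -0.30, -0.35 and -0.38 in the same comparison.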

How the data were processed

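Whole-lung RNA was labelled with 1 dye and hybridised to Agilent Mouse miRNA Microarray Release 12.0 slides. Scanner files deposited by the authors come from Feature Extraction 10.7.3.1 and give an intensity per spot, corrected for local background and not scaled across arrays. A table of log2 values, also deposited, was matched by name to the scanner's log2 totals minus 1 constant per array. A match was defined as agreement within 0.15 on the arrays above background, and 161 miRNAs met it. Its column medians ran from -7.7 to -5.7, and its centring is not given in the sources used here.

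Control spots and outlier flags were left out, spots averaged per probe and probes summed per miRNA. Arrays were divided by their 75th percentile over the 206 mouse miRNAs above background on all arrays and multiplied by the mean of those percentiles. Signals under 1.82 were then set to 1.82, and log2 was taken. The 266 miRNAs above background on every array of a group were fitted with limma 3.58.1 in R 4.3.3 (4 group means, 16 arrays, Benjamini-Hochberg). No spot was saturated. The fit was tested on simulated data. All family members were named, with miR-384-5p and the 3 nearest profiles per arm. The members, marker lists and tests were chosen with earlier results of these data known. Sequences come from RefSeq (GRCm38.p6). Alternatives covered scaling, background, summary, filters, floor, slide, replicate block, variance model, test and each array left out. The number of arrays limits the precision.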

Additional observations from a re-analysis of the deposited data

Results flagged for a closer look

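In groups of 4 to 6 arrays, 45 sets of values were screened for a single array set apart from the rest by Dixon's criterion, which chance meets in about 1 in 20, and 11 met it. PBS/OVA replicate 2 was low for miR-30a-5p at 13.39 (others 13.76 to 13.82), for miR-30b-5p at 11.71 (others 12.08 to 12.14) and for miR-30c-5p at 11.85 (others 12.33 to 12.37). OVA/OVA DEX replicate 4 was low for miR-30c-2-3p at 6.58 (others 6.96 to 7.02) and high for miR-30e-3p at 8.76 (others all 8.66). On the same array the arm ratio was low for miR-30a at 3.90 (others 4.06 to 4.09) and high for miR-30c over miR-30c-2-3p at 5.91 (others 5.66 to 5.69). OVA/OVA replicate 2 was low for miR-30e-3p at 7.67 (others 8.16 to 8.43) and high for the miR-30a arm ratio at 4.44 (others 3.96 to 4.09). In OVA/OVA replicate 4, miR-30c-1-3p read 3.34 with the others at the floor of 0.86, and the ratio of miR-30c-5p to it was 8.72 (others 10.44 to 11.22). This is the brightest OVA/OVA array before scaling, at 733489. Of the 4 arrays named, 3 lay on slide 1, which held 2 arrays of each group.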

How the results depend on the processing

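All values here are counts of the 10 members or of the 5 arm ratios past the threshold, or log2 differences where said. Percentages in brackets are the shares of all miRNAs tested that passed. In OVA/OVA against OVA/OVA DEX, 8 members (53.4%) became 0 without scaling (8.65%) and 0 with a 2-fold minimum (12.8%). They became 6 after normexp (22.2%) or within slide 1 (25.6%, miR-30c-1-3p among the 6), and 7 within slide 2 (16.9%) or with the Mann-Whitney test (42.9%). The 2 arm ratios became 0 after quantile normalization, within slide 2 or with the exact Mann-Whitney test, and 1 with the deposited values (3 pairs testable), within slide 1 or in a fit of only the 2 groups. Against PBS/OVA, 3 members (31.6%) became 0 with the percentile over all miRNAs (7.89%), no scaling (0.752%), slide 2 (0%) or a 2-fold minimum (5.26%). They became 1 with array brightness as covariate (20.3%), slide 1 (9.77%, miR-30c-1-3p) or the Mann-Whitney test (19.9%). The 0 arm ratios became 1 with the deposited values, no detection filter or detection on all arrays. Against PBS/PBS, 4 members (25.6%) became 10 with the percentile over all miRNAs or no scaling (where 51.5% and 59.8% of all miRNAs passed, 125 and 156 of them lower). They became 2 with the scanner's total signal (21.4%), no filter (8.84%), the replicate block (19.5%) or 2 groups (17.7%). Within slide 1 (15%) or with a 2-fold minimum (9.77%) they became 1, which was miR-30c-1-3p. With brightness (3.38%) or Mann-Whitney (0%, smallest possible p 0.0714) they became 0. The 1 arm ratio became 3 after normexp, 2 with no filter, and 0 with brightness, the scanner's total, the mean over probes, detection on all arrays, a floor 2 times higher, the replicate block, 2 groups or Mann-Whitney. In OVA/OVA DEX against PBS/PBS, 0 members became 1, miR-30c-1-3p, within slide 1 (1.13%) or with 2 groups (1.5%). The 0 arm ratios became 1 with those or the higher floor. Differences turned for miR-30c-1-3p against PBS/PBS (normexp 0.86), for miR-30c-2-3p against OVA/OVA DEX (normexp 0.02) and for its arm ratio (quantile 0.05). The ratio with miR-30c-1-3p against PBS/PBS turned to -1.45 (normexp), -0.44 (scanner's total) and -0.18 (mean over probes). Normexp adds 50 to every spot, so its values for these dim strands cannot decide a direction. The causes were not tested.

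Leaving out each array in turn gave 8 to 9 members against OVA/OVA DEX, 1 to 5 against PBS/OVA, 0 to 6 against PBS/PBS, and 0 in both comparisons without OVA/OVA. Those counts include miR-30c-1-3p where it passed. Arm ratios ranged from 1 to 2 against OVA/OVA DEX, 0 to 2 against PBS/OVA (2 without OVA/OVA replicate 4, 1 without replicate 5), and 0 to 2 against PBS/PBS (0 without either PBS/PBS array or OVA/OVA replicate 3, 2 without OVA/OVA replicate 1, 4 or 5). They ranged from 0 to 1 for OVA/OVA DEX against PBS/PBS (1 without OVA/OVA replicate 4). Over the differences of the members and ratios that passed, 249 values under other alternatives and 251 with an array left out kept direction and side of the threshold, and 86 and 37 kept direction only. Of 18 pairs of arrays with the same replicate number, 3 correlated over 0.1 (-0.78 to 0.406). Pairs with different numbers are not given beside them, so whether the numbers pair the arrays is not settled. With the replicate block, 8, 4 and 2 members passed against OVA/OVA DEX, PBS/OVA and PBS/PBS. Dim strands limit the arm comparisons, since miR-30c-1-3p was above background on 4 of 16 arrays.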
